A study of Bos taurus with 17 samples.

Results

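The genes described here are 39 bovine genes of peroxide, glutathione and thioredoxin metabolism, grouped in 8 enzyme families. A gene was followed through the probes that carry its name on an Agilent 60-base bovine array, or whose description names it where the array gives only a locus number. CAT, GLRX and PRDX6, which the array lists under clone numbers or an older symbol, were found by description and accession. Of the 39 genes, 38 had a probe and 37 had a probe that passed the filter on dim signals, out of 20602 gene names on the array, with 21475 probes of which 13865 passed. GPX8 had no probe, and the MGST1 probe was not well above background on any array, so neither has a level here.

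Cumulus cells, the somatic cells wrapped around the oocyte, were studied at 3 stages, with 1 array per sample and 17 arrays in all. NC1 cells (6 arrays) came from prepubertal calves of 3 to 6 months and C1 cells (6 arrays) from adult cows of different ages, both taken after slaughter from follicles of 3 to 6 mm with compact cumulus around prophase I oocytes. C2 cells (5 arrays) came from cycling, non-lactating Holstein cows of 3 to 5 years given progestagen implants, FSH with LH and prostaglandin F2α, by ovum pick-up 60 h after prostaglandin, from follicles above 8 mm with expanded cumulus around metaphase II oocytes. Age of the animal therefore cannot be told apart from stage between NC1 and either adult stage, C1 or C2. Nor can hormone treatment, follicle size and way of collection be told apart from stage at C2. Breed and lactation are given only for the C2 cows. The methods count 6 calves, 6 cows and 5 cows, but the labels do not say whether an array held the cells of a single animal, and if it did not, the p-values measure only the spread between these samples.

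Peroxide is made when superoxide dismutases convert superoxide, and it is removed by catalase, by glutathione peroxidases and by peroxiredoxins. Glutathione peroxidases and glutaredoxins draw on glutathione, which glutamate-cysteine ligase and glutathione synthetase make and glutathione reductase recycles, while peroxiredoxins draw on thioredoxins kept reduced by thioredoxin reductases. NRF2 (gene NFE2L2), held down by KEAP1, switches on many of these enzymes, and cumulus cells are known to supply the oocyte with glutathione precursors through gap junctions.

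The sequences of a few of the probes that follow are given as deposited. They were not aligned to a transcript or genome, so the transcript each probe measures was not checked. GCLC rests on a single probe, which the array lists under a locus number. The first 3 stand for the catalytic and the modifier subunit of glutamate-cysteine ligase and for glutaredoxin, of which 30 bases are shown, and the last 2 are the whole probes for GSTA1, which behaved differently from each other. Capitals mark the polyadenylation hexamer AATAAA, searched on the listed strand. It was found in 12 (27.9%) of 43 probes with a deposited sequence, which include probes described as like a member. Not all of the 43 were valid, so the share of 15.0% over all 13865 valid probes is of an unlike set.
GCLC, bases 1 to 30 of 60: gggaagcttggggttctggcgccttatctg
GCLM, bases 29 to 58 of 60: actaatagtgtaAATAAAagtcctttcttc
GLRX, bases 1 to 30 of 60: ctgccattataAATAAAggcacatgctatt
GSTA1, brighter probe: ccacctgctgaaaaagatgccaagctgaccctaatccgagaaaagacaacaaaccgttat
GSTA1, dimmer probe: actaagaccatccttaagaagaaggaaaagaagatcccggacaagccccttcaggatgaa
The 2 GSTA1 probes shared no run longer than 7 bases, and no pair among the 43 probes shared more than 11. Reads of a probe are given below as log2 signal relative to the array's median probe, so a rise of 1 is a doubling, and levels of different probes are not compared.

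The 5 C2 arrays did not behave as 5 even replicates. Over all valid probes the SD of the difference between 2 C2 arrays was 0.44 for replicates 1 and 5 and 0.51 for replicates 3 and 4, against 1.05 to 1.27 for the other 8 pairs, whereas pairs within NC1 ran from 0.43 to 0.69 and within C1 from 0.45 to 0.76. Replicates 3 and 4 were scanned on one day and replicates 1, 2 and 5 on another. Probes well above background made up 63.2 to 73.9% of the array at NC1, 70.8 to 79.5% at C1 and 68.8 to 78.0% at C2, and no spot was saturated. SERPINE2 and INHA, genes of cumulus and granulosa cells, were well above background on every array, 6 of the 10 valid genes of their list were lower at C2 than at C1, and 5 of 5 valid genes of cumulus expansion, among them TNFAIP6 and PTX3, were higher at C2 than at C1. Leukocyte and macrophage markers summed to 22.6 to 69.1 times the array median on 4 C2 arrays and to 6.77 on C2 replicate 2, against 8.42 to 24.5 at NC1 and 5.38 to 10.1 at C1. Of the 10 valid leukocyte and macrophage markers, 6 were higher at C2 than at C1 and only 1 was higher than at NC1. Their highest sums, 48.0 and 69.1, were those of C2 replicates 1 and 5, on which the summed cumulus and granulosa markers were lowest (2140 and 1971, against 4259 to 7037 on the other C2 arrays). Oocyte markers summed to 52.0 to 123 at NC1, 4.97 to 48.3 at C1 and 3.26 to 7.74 at C2. Of the 7 oocyte genes with a probe, 3 (BMP15, ZP2 and ZAR1) were not well above background on any C2 array, and the rest were on at least 1. Theca and stroma markers summed to 194 to 302 at the immature stages and 439 to 610 at C2, and endothelial ones to 1.54 to 3.17 and 3.25 to 11.7. These sums do not show a rise of each list as a whole. Of 9 valid theca and stroma genes, 2 were higher at C2 than at C1 and 1 than at NC1. Of 5 valid endothelial genes, 1 was higher than at C1, and against NC1 1 was higher and 1 lower. The 7 red blood cell genes with a probe summed to no more than 2.27 on any array, and 3 of them, ALAS2 included, were not well above background on any C2 array. The part of other cells in the changes below was not tested, and fewer cells of a type and less RNA per cell cannot be told apart in these samples.

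At the C2 stage 7 of 37 member genes (18.9%) were up-regulated and 4 (10.8%) down-regulated in comparison to C1, when 15.3% of all valid probes rose and 12.8% fell at an adjusted p under 0.01 in limma (28.1% in either direction). In comparison to NC1, 11 of 37 (29.7%) rose and 5 (13.5%) fell, against 15.5% and 12.6% of all probes (28.1% in either direction). With the 75th percentile scaling 7 rose and 6 fell against C1 and 11 rose and 7 fell against NC1, and with quantile normalization 6 and 6, and 10 and 7. The C2 arrays did not overlap those of C1 for 5 of 37 member genes (13.5%) and those of NC1 for 9 (24.3%), as held for 21.6% and 20.9% of all valid probes. The shares of members were thus near those of the whole array, apart from the rises against NC1 and the lower share without overlap with C1. The difference of these shares was not tested. Members were counted by their brightest valid probe, whereas the shares of the whole array count every valid probe. Between C1 and NC1 no member gene passed the threshold in limma, where 0.00721% of all probes were higher and 0.0505% lower (0.0577% in either direction), and 4 of 37 had an unadjusted p under 0.05. The median difference over members was 0.21 against C1 and 0.47 against NC1, beside 0.02 and 0.11 over all valid probes. Under scaling by the 75th percentile those 2 medians over all probes became -0.11 and -0.04, so the direction of the smallest differences depends on the scaling. Both contrasts use the same C2 arrays. Called members moved the same way on both scan days, for 11 of 11 calls against C1 and 16 of 16 against NC1, and on every slide that held both stages for 10 of 11 and 11 of 16. As the calls were made on these same arrays, such agreement is largely fixed in advance and is no independent support.

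**Figure D1:**
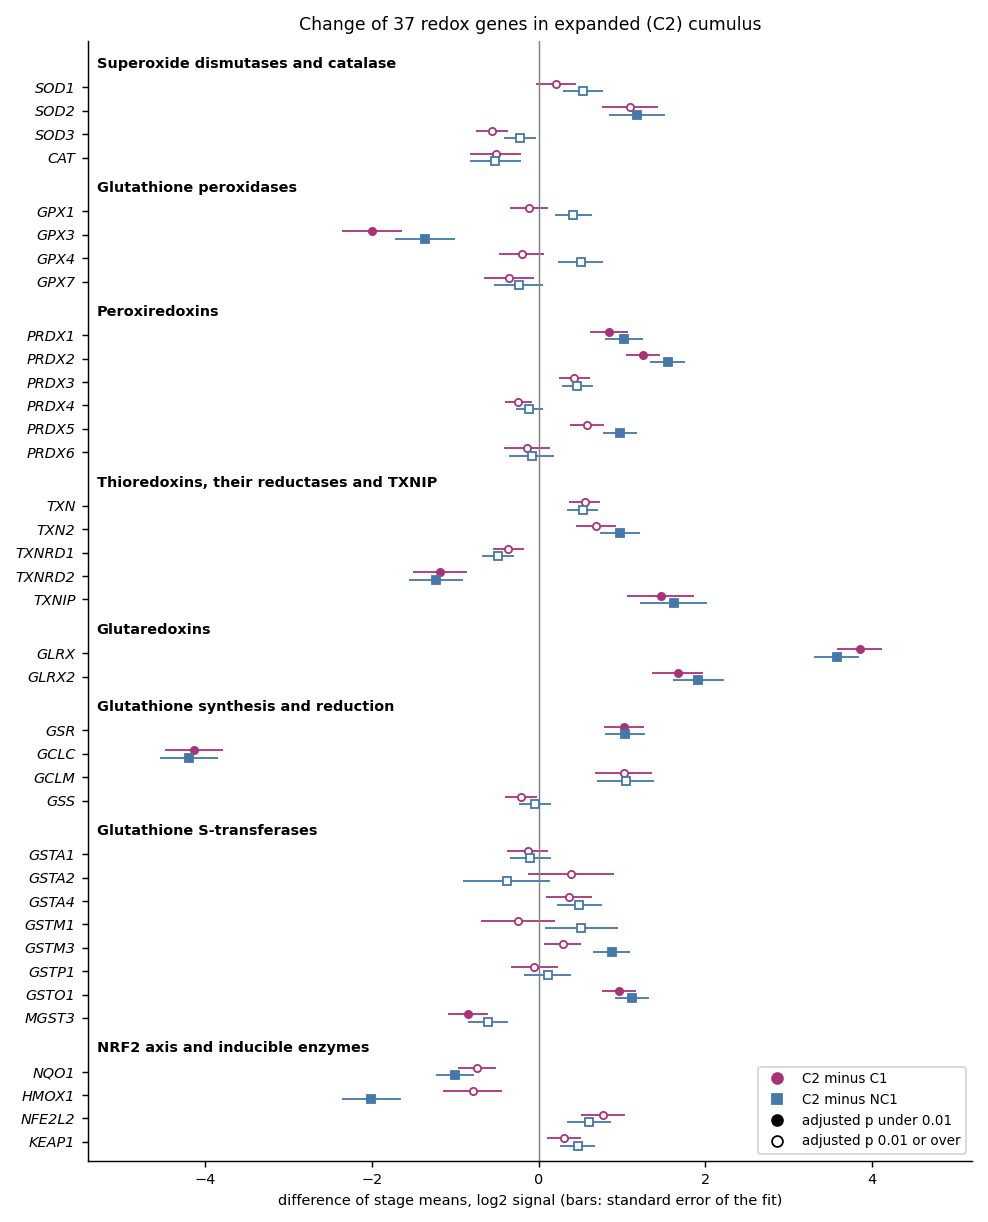
Differences of stage means, in log2 signal, for the 37 member genes with a valid probe, grouped by enzyme family. Circles are C2 minus C1 and squares C2 minus NC1, bars are the standard error of the limma fit, and filled symbols passed an adjusted p of 0.01. GCLC lies near -4 and GLRX near 4 in both contrasts, and the other members lie between about -2 and 2.

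Glutathione synthesis held the largest fall among the members. GCLC, the catalytic subunit of glutamate-cysteine ligase, which makes the rate-limiting step of glutathione synthesis, lay between 6.98 and 7.46 at NC1 with a median of 7.29, and between 6.71 and 8.15 at C1 with a median of 7.02. On C2 replicates 1 to 5 it read 2.72, 2.57, 4.11, 4.02 and 1.83. Every C2 array therefore lay more than 2 log2 units below every immature one. The fall was 4.13 ± 0.35 (SE) on the log2 scale against C1, a 17.6-fold lower signal (adjusted p = 4.89e-08), and 4.19 ± 0.35 against NC1 (adjusted p = 4.4e-08). Among all valid probes it had the 65th lowest difference from C1. Left-out arrays moved the difference from C1 only between -4.40 and -3.83, and it was -5.00 within the first scan day and -2.93 within the second.

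The other glutathione genes did not follow GCLC. GCLM, the modifier subunit of the same enzyme, read 4.98, 5.72, 6.70, 6.92 and 5.19 on the C2 arrays, against 4.30 to 5.58 at C1 and 4.42 to 5.44 at NC1. Its C2 replicates 2, 3 and 4 lay above all immature arrays and replicates 1 and 5 among them. The difference of 1.02 ± 0.34 from C1 missed the threshold (adjusted p = 0.0224), as did that of 1.04 ± 0.34 from NC1 (adjusted p = 0.0199), and both passed when C2 replicate 1 was left out. GSR, glutathione reductase, which returns oxidised glutathione to its reduced form, read 5.40, 4.37, 5.60, 5.56 and 4.88 at C2, 3.76 to 4.50 at C1 and 3.83 to 4.58 at NC1. All but C2 replicate 2 were above every immature array, and the rise was 1.02 ± 0.24 against C1 (adjusted p = 0.00206) and 1.04 ± 0.24 against NC1 (adjusted p = 0.00191), and both calls were lost when C2 replicates 1 and 5, and 3 and 4, were averaged (adjusted p = 0.0177 and 0.0165). GSS, glutathione synthetase, differed by -0.21 ± 0.19 from C1 and by -0.05 ± 0.19 from NC1.

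Glutaredoxins use glutathione to undo its mixed disulphides with proteins, and both rose. GLRX, the cytosolic enzyme, lay between -2.39 and -1.44 at NC1 with a median of -1.84 and between -2.85 and -1.80 at C1 with a median of -1.91. At C2 it read 1.11, 1.57, 2.37, 2.36 and 1.16, so that the lowest C2 array stood more than 2 log2 units above the highest immature one. The rise of 3.85 ± 0.27 over C1 was 14.4-fold (adjusted p = 5.79e-09), and that over NC1 was 3.57 ± 0.27, or 11.9-fold (adjusted p = 1.46e-08). With the normexp background correction, which adds an offset to dim probes, the rises were 2.53 and 2.22. GLRX2, the mitochondrial and nuclear glutaredoxin, read 4.20, 3.50, 5.00, 5.57 and 4.40 at C2, 2.36 to 3.51 at C1 and 2.15 to 2.96 at NC1. Its C2 arrays were above all NC1 arrays and, but for replicate 2, above all C1 arrays. The rise was 1.67 ± 0.30 over C1 (adjusted p = 0.000256) and 1.91 ± 0.30 over NC1 (adjusted p = 6.86e-05). A further probe described as GLRX-like was not well above background on any array.

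**Figure D2:**
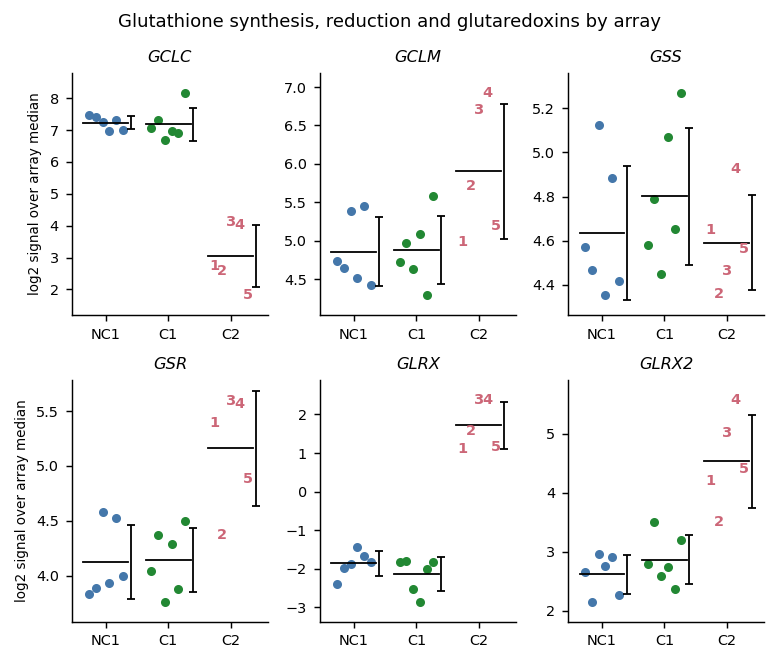
Log2 signal over the array median for genes of glutathione synthesis and reduction and the 2 glutaredoxins, each panel on its own scale. Points are arrays, numbers are the C2 replicates, lines are stage means and bars the SD (n = 6, 6 and 5). GCLC at C2 lies wholly below, and GLRX wholly above, the immature stages, and for GCLM the C2 replicates 2, 3 and 4 lie above and 1 and 5 among them.

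Peroxiredoxins, the thiol peroxidases that consume most cellular peroxide, moved in part, and no member fell. PRDX2, a cytosolic one, read 8.34, 7.68, 8.31, 9.02 and 8.11 at C2, above the ranges of 6.68 to 7.36 at C1 and 6.37 to 6.91 at NC1. Without overlap between the stages, it rose by 1.25 ± 0.21 over C1 (2.38-fold, adjusted p = 0.000107) and by 1.55 ± 0.21 over NC1 (2.93-fold, adjusted p = 1.16e-05). PRDX1, its close relative, rose by 1.02 ± 0.23 over NC1 (adjusted p = 0.00161) and by 0.85 ± 0.23 over C1 (adjusted p = 0.00647). Its call against C1 was lost without C1 replicate 1, 3, 4 or 5 or C2 replicate 2, 3 or 4, where the rise was 0.70 to 1.00 over all left-out arrays. It was also lost with slide as a block (adjusted p = 0.0204), with array weights, which give C2 replicates 2, 3 and 4 the lowest weights of all arrays, and with normexp, no filter on dim probes, and the close C2 arrays averaged. PRDX5, found in mitochondria and peroxisomes, read 8.09, 6.81, 7.34, 7.86 and 7.22 at C2 and rose over NC1 (6.23 to 6.68) by 0.97 ± 0.20 (adjusted p = 0.000856). Against C1 (6.62 to 7.18) its difference of 0.58 ± 0.20 did not pass (adjusted p = 0.0286) and did without C2 replicate 2. With array weights it passed as well (0.73, adjusted p = 0.00559 in limma). PRDX3, the mitochondrial peroxiredoxin, differed from C1 by 0.43 ± 0.19 and from NC1 by 0.46 ± 0.19, the second passing without C2 replicate 2. PRDX4 of the endoplasmic reticulum and PRDX6, which uses glutathione, differed by -0.24 ± 0.16 and -0.14 ± 0.27 from C1. A second probe described as PRDX6-like was not well above background on any array.

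Among the thioredoxins and their reductases the members went in opposite directions. TXN2, mitochondrial thioredoxin, read 6.40, 4.96, 5.21, 5.45 and 6.47 at C2, above the NC1 range of 4.42 to 4.90 on every array and above the C1 range of 4.81 to 5.18 on replicates 1, 3, 4 and 5. It rose by 0.97 ± 0.24 over NC1 (adjusted p = 0.00329), a call lost without C2 replicate 1 or 5 (0.78 the lowest of all left-out values) and with the close C2 arrays averaged. The 0.69 ± 0.24 over C1 did not pass (adjusted p = 0.0282) but did without C2 replicate 2 and with array weights (1.04, adjusted p = 0.000772 in limma). TXN, the cytosolic form, differed by 0.55 ± 0.19 from C1 and 0.53 ± 0.19 from NC1, both passing only without C2 replicate 2 among the left-out arrays. With array weights its difference from NC1 passed (0.63, adjusted p = 0.00593 in limma). TXNRD2, which reduces mitochondrial thioredoxin, read 5.07, 3.42, 3.04, 3.28 and 4.87 at C2 and 4.78 to 5.61 at C1. Replicates 1 and 5 lay inside the C1 range and the other 3 more than 1 log2 unit below it. The fall was 1.18 ± 0.32 against C1 (adjusted p = 0.00712) and 1.24 ± 0.32 against NC1 (adjusted p = 0.00517), and with array weights it was 0.64 and 0.74 with no call. The call against C1 was also lost without C1 replicate 1, 2, 4 or 6 or C2 replicate 2, 3 or 4, and that against NC1 without the same C2 replicates or NC1 replicate 3, 4 or 5. Without a filter on dim probes the first call was lost, and with normexp the second. TXNRD1, the cytosolic reductase, differed by -0.36 ± 0.19 from C1 (adjusted p = 0.135) and by -0.49 ± 0.19 from NC1 (adjusted p = 0.0463), and passed in both contrasts under scaling by the 75th percentile and under quantile normalization.

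TXNIP, which binds thioredoxin and restrains it, read 4.45, 5.86, 6.14, 6.17 and 4.32 at C2, 3.12 to 4.68 at C1 and 3.15 to 4.77 at NC1. The C2 replicates 2, 3 and 4 stood above every immature array and replicates 1 and 5 did not. It rose by 1.46 ± 0.40 over C1 (2.76-fold, adjusted p = 0.00712) and by 1.62 ± 0.40 over NC1 (3.08-fold, adjusted p = 0.00349). Without C2 replicate 3 or 4 neither call held, and that against C1 was also lost without C1 replicate 1, 3, 4 or 5 or C2 replicate 2, with rises of 1.27 to 1.73 over all left-out arrays. Both calls were also lost with slide as a block (1.45 and 1.61, adjusted p = 0.0239 and 0.0143) and with array weights (1.21 and 1.32), and that against C1 with quantile normalization, without a filter on dim probes and with the close C2 arrays averaged. In TXNIP and GCLM the C2 replicates 2, 3 and 4 were thus the high ones, in TXNRD2 they were the low ones, and in SOD2 and TXN2 it was replicates 1 and 5 that were highest.

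The superoxide dismutases feed peroxide into the system. SOD2, the mitochondrial enzyme, read 5.40, 3.50, 4.25, 4.19 and 5.94 at C2, 3.15 to 3.99 at C1 and 3.13 to 3.75 at NC1. All but C2 replicate 2 were above every immature array. The rise over NC1 was 1.18 ± 0.33 (adjusted p = 0.00858) and the difference from C1 1.1 ± 0.33 (adjusted p = 0.0135). The first call did not hold without any of 13 arrays, namely each NC1 replicate, C1 replicates 1 to 5 and C2 replicates 1 and 5, where the difference ran from 0.86 to 1.47 over all left-out arrays. It was also lost with slide (adjusted p = 0.0103) or scan day as a block, without a filter on dim probes, and with the close C2 arrays averaged. The second passed without C2 replicate 2 and with array weights (adjusted p = 0.000266 in limma). With array weights the 2 values were 1.63 and 1.65. SOD1, the cytosolic form, differed by 0.21 ± 0.24 from C1 and 0.53 ± 0.24 from NC1. SOD3, the secreted form, differed by -0.55 ± 0.19 from C1 (adjusted p = 0.0273), and catalase (CAT), the peroxisomal enzyme, by -0.52 ± 0.31 (adjusted p = 0.194).

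Of the glutathione peroxidases only GPX3, the secreted one, passed the threshold. It lay between 3.15 and 4.38 at C1 with a median of 3.72, between 2.20 and 3.80 at NC1 with a median of 3.20, and read 0.68, 2.72, 1.60, 2.14 and 1.48 at C2. Every C2 array was below every C1 array, while C2 replicate 2 reached into the NC1 range. GPX3 fell by 2.00 ± 0.36 against C1 (4.01-fold, adjusted p = 0.000223) and by 1.36 ± 0.36 against NC1 (2.56-fold, adjusted p = 0.00567), the second call being lost without C2 replicate 1, 3 or 5 or NC1 replicate 1, 3 or 4 (-1.1 the smallest difference), with normexp and with the close C2 arrays averaged. GPX1, the main cytosolic enzyme, differed from C1 by -0.11 ± 0.22 at C2, GPX4, which reduces lipid peroxides in membranes, by -0.20 ± 0.27, and GPX7 of the endoplasmic reticulum by -0.36 ± 0.30. GPX1 and GPX4 were the 2 members whose adult and calf arrays did not overlap. GPX1 was 7.62 to 7.83 at C1 and 6.85 to 7.55 at NC1, and GPX4 7.78 to 8.26 and 6.88 to 7.49. The differences were 0.53 ± 0.21 and 0.71 ± 0.26, and neither passed over all probes (adjusted p = 0.394 and 0.313 in limma). Both were higher at C1 on 6 of 6 slides. The exact two-sided permutation p was 0.00216 each, the smallest that 6 against 6 arrays can give. Both facts follow from the lack of overlap by which the 2 genes were picked, and add no support. The genes without overlap were 2 of 37 members, or 5.41%, where 2.10% of all valid probes had C1 and NC1 arrays without overlap.

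**Figure D3:**
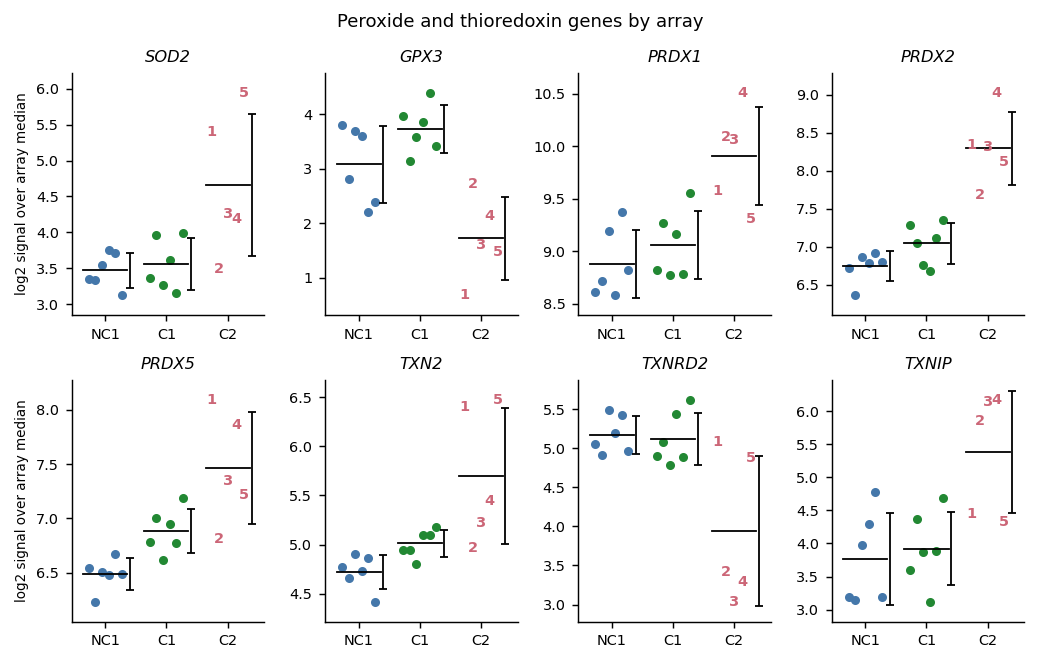
Log2 signal over the array median for 8 peroxide and thioredoxin genes, each panel on its own scale. Points are arrays, numbers are the C2 replicates, lines are stage means and bars the SD (n = 6, 6 and 5). PRDX2 at C2 is wholly above both immature stages, whereas for SOD2, TXN2, TXNRD2 and TXNIP the C2 replicates 1 and 5 stand apart from 2, 3 and 4.

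Glutathione S-transferases, which couple glutathione to electrophiles and to peroxidised lipids, were mostly without a call. GSTO1, an omega-class enzyme with thiol transferase activity, read 6.50, 5.90, 5.92, 6.18 and 6.46 at C2, above the ranges of 4.94 to 5.61 at C1 and 4.38 to 5.61 at NC1, and rose by 0.96 ± 0.21 over C1 (adjusted p = 0.0011) and 1.12 ± 0.21 over NC1 (adjusted p = 0.000302). A further probe described as GSTO1-like went the other way, by -2.12 ± 0.34 against C1 in the fit without a filter, and was well above background on 1 of 5 C2 arrays, against 6 of 6 at C1. Taken against the lowest signal above background, this is at least a 2.47-fold lower signal. GSTM3, of the mu class, rose over NC1 by 0.88 ± 0.22 (adjusted p = 0.00449), a call lost without C2 replicate 1 or 4 or NC1 replicate 2, 5 or 6 (0.77 the lowest value), with slide as a block (adjusted p = 0.0148), with quantile normalization and with the close C2 arrays averaged, and differed by 0.29 ± 0.22 from C1. MGST3, a microsomal enzyme, read 5.64, 4.45, 4.94, 5.39 and 5.23 at C2 and 5.61 to 6.45 at C1. It fell by 0.85 ± 0.24 against C1 (adjusted p = 0.00908), a call lost without any of 11 arrays: C1 replicates 1, 2, 4 and 6, C2 replicates 2, 3 and 5, and NC1 replicates 1, 4, 5 and 6 (-0.98 to -0.68 over all left-out arrays). It was also lost with array weights, scan day as a block, no filter on dim probes, and the close C2 arrays averaged. GSTP1 differed by -0.05 ± 0.28 from C1 on its brighter probe and by -0.22 ± 0.21 on its dimmer one.

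The alpha class, whose members are abundant in steroid-making cells, gave different answers probe by probe, and near-identical copies of these genes could share signal. The brighter GSTA1 probe printed above read 9.88, 9.81, 10.4, 10.4 and 9.30 at C2, 9.73 to 10.2 at C1 and 9.72 to 11.04 at NC1, with a difference of -0.13 ± 0.24 from C1. The dimmer GSTA1 probe, for the same locus, read -3.98, -0.73, -3.21, -3.31 and -3.26 at C2, was well above background on both of its spots on 2 of those 5 arrays and on at least 1 spot on 4, and lay between -1.91 and 0.07 at C1. It fell by 2.36 ± 0.53 against C1 (adjusted p = 0.00173), at least 4.72-fold when dim arrays are set at the lowest signal above background. The average of the 2 GSTA1 probes passed as lower in both contrasts. That average differed by -1.24 from C1 (adjusted p = 0.00118 in limma) and by -1.05 from NC1 (adjusted p = 0.00458 in limma). A probe described as GSTA1-like, whose gene is now named GSTA5, read 9.74, 4.46, 4.87, 5.28 and 9.86 at C2, 3.60 to 4.69 at C1 and 3.09 to 4.43 at NC1. Its rise over NC1 was 3.22 ± 0.81 (adjusted p = 0.00403), and the difference from C1 was 2.51 ± 0.81 (adjusted p = 0.0195), with C2 replicates 1 and 5 more than 4 log2 units above the other 3. GSTA2 read 5.77, 2.86, 2.39, 2.80 and 5.39 and GSTA4 7.57, 5.79, 6.29, 6.68 and 7.47 on the same arrays, again highest on replicates 1 and 5. Their stage differences, 0.39 ± 0.52 and 0.37 ± 0.27 from C1, did not pass. With array weights GSTA4 passed against NC1 (0.88, adjusted p = 0.00897 in limma). GSTM1, of the mu class, read 4.74, 5.14, 2.91, 3.25 and 5.19 at C2, lowest on replicates 3 and 4. Replicates 1 and 5 were also those with the highest leukocyte and lowest cumulus marker sums.

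**Figure D4:**
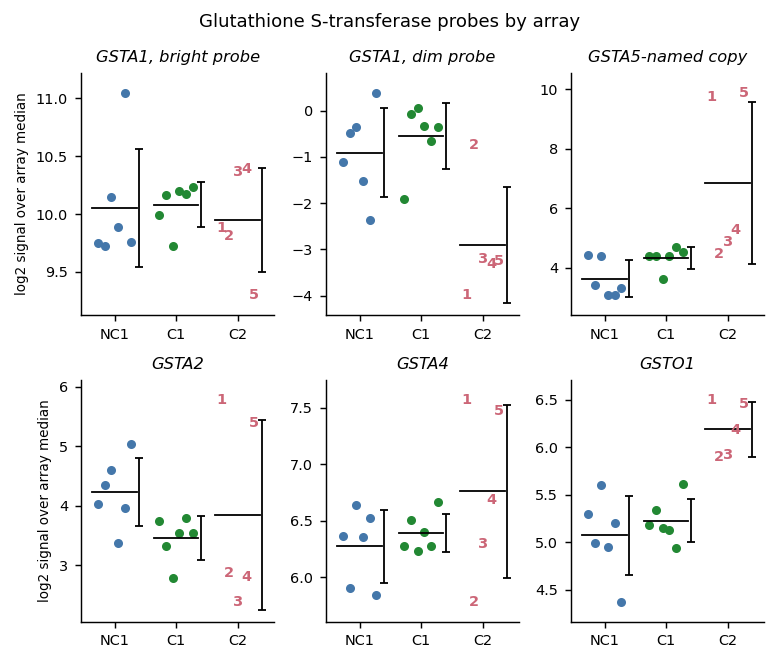
Log2 signal over the array median for 6 glutathione S-transferase probes, each panel on its own scale. Points are arrays, numbers are the C2 replicates, lines are stage means and bars the SD (n = 6, 6 and 5). GSTO1 at C2 is above both immature stages, and C2 replicates 1 and 5 stand above the other C2 arrays for GSTA2, GSTA4 and the GSTA5-named probe.

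HMOX1, heme oxygenase 1, which breaks heme down to biliverdin, iron and carbon monoxide, was highest in calf cells and lowest at C2. It lay between 7.38 and 9.39 at NC1 with a median of 8.62, between 6.34 and 8.31 at C1 with a median of 7.12, and read 6.50, 6.00, 6.83, 6.73 and 6.18 at C2. The C2 arrays were all below the NC1 arrays and overlapped those of C1. The fall from NC1 to C2 was 2.00 ± 0.36 (4.01-fold, adjusted p = 0.000204). C1 was lower than NC1 by 1.21 ± 0.34, on 6 of 6 slides, with an unadjusted p of 0.00212 in limma that did not pass over all probes (adjusted p = 0.145), and C2 differed from C1 by -0.79 ± 0.36 (adjusted p = 0.0829). The summed oocyte markers given above had the same order of stages, and their part in the HMOX1 levels was not tested. NQO1, a quinone reductase that NRF2 induces, read 2.34, 1.64, 1.5, 1.31 and 1.86 at C2, 1.97 to 2.91 at C1 and 2.29 to 3.28 at NC1. It fell by 1.00 ± 0.23 against NC1 (adjusted p = 0.00179), and its difference of -0.74 ± 0.23 from C1 (adjusted p = 0.014) passed without C1 replicate 5 or C2 replicate 1, and with 75th percentile scaling, quantile normalization or normexp. With array weights the call against NC1 was lost (-0.78, adjusted p = 0.0150 in limma).

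The regulators themselves did not pass the threshold on any single probe. NFE2L2, which encodes NRF2, read 5.53, 4.62, 5.59, 5.71 and 5.56 at C2, 4.20 to 5.25 at C1 and 4.18 to 5.26 at NC1, with replicate 2 inside and the other 4 above both immature ranges. Its difference of 0.77 ± 0.26 from C1 (adjusted p = 0.0252) passed without C2 replicate 2, and that of 0.61 ± 0.26 from NC1 did not pass (adjusted p = 0.0741). KEAP1, which sends NRF2 to degradation, differed by 0.30 ± 0.21 from C1 and 0.47 ± 0.21 from NC1 on its brighter probe and by 0.22 ± 0.18 and 0.62 ± 0.18 on its other one. Against NC1 the adjusted p in limma was 0.0796 and 0.0118 on the 2 probes, and their average passed (0.54, adjusted p = 0.00343).

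**Figure D5:**
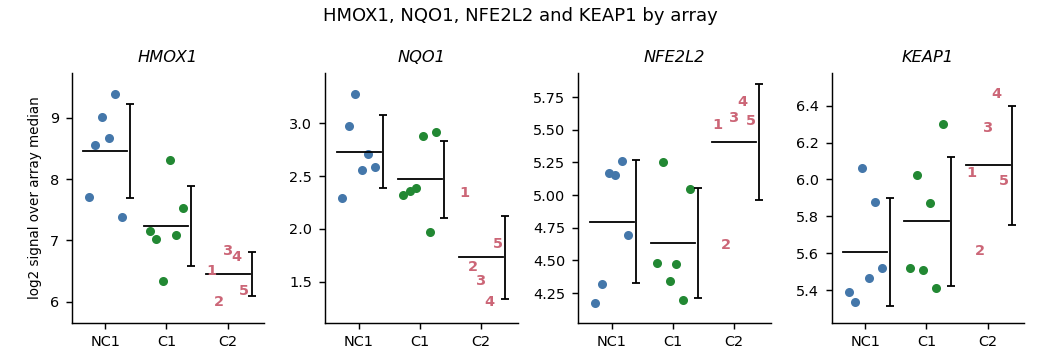
Log2 signal over the array median for HMOX1, NQO1, NFE2L2 and KEAP1 (brighter probe), each panel on its own scale. Points are arrays, numbers are the C2 replicates, lines are stage means and bars the SD (n = 6, 6 and 5). HMOX1 is lowest at C2 and highest at NC1, and C2 replicate 2 is the low C2 array for NFE2L2.

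Other genes of the same pathways, from a list of 109 names, had a probe for 82 and a valid one for 65. Of the 65, 9 rose and 10 fell at C2 against C1, and 11 rose and 11 fell against NC1, with a median difference of 0.14 from C1. Over all valid probes 15.3% rose and 12.8% fell against C1, and 15.5% rose and 12.6% fell against NC1. The counts of the list were not tested against these shares. Scaling by the 75th percentile gave 11 and 15 against C1. The 5 largest rises against C1 among those called were in MT1A, a metal-binding metallothionein (4.06 ± 0.47, adjusted p = 2.23e-06), XDH, xanthine dehydrogenase (3.46 ± 0.75, adjusted p = 0.00117), ALDH1A1, a retinal dehydrogenase (3.25 ± 0.86, adjusted p = 0.00556), HMOX2, the constitutive heme oxygenase (2.93 ± 0.21, adjusted p = 8.36e-09), and IDH1, a cytosolic source of NADPH (2.20 ± 0.28, adjusted p = 5.85e-06). XDH and ALDH1A1 did not pass against NC1. Their C2 arrays were widely spread, from -1.88 to 3.83 for XDH and from -2.48 to 4.32 for ALDH1A1, and overlapped those of C1. The 5 largest falls were in AKR1B1, aldose reductase (-2.81 ± 0.18, adjusted p = 1.34e-09), EPHX1, epoxide hydrolase (-2.67 ± 0.54, adjusted p = 0.000613), PON3, a paraoxonase (-2.13 ± 0.57, adjusted p = 0.00585), and the biliverdin reductases BLVRB (-1.83 ± 0.27, adjusted p = 2.79e-05) and BLVRA (-1.80 ± 0.22, adjusted p = 3.28e-06). In heme breakdown HMOX1 and both biliverdin reductases were thus lower at C2 than at NC1, while HMOX2 was higher.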

How the data were processed

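The authors extracted total RNA with TRIzol, labelled 0.35 µg per sample with Cy3 and hybridised it to Agilent 1-colour bovine arrays. The authors deposited spot intensity values written by Agilent Feature Extraction 10.5.1.1 (gProcessedSignal, after background subtraction, with no scaling between arrays), and a table of log2 values scaled to each array's median, whose probe sequences were used and whose values served as an alternative. The deposited flag columns, a score of 0 or 1 per spot, say whether a spot was well above background, uniform, saturated or an outlier. From the spots, log2 intensity was averaged per probe, leaving out non-uniform and outlier spots, and each array's median over non-control probes was subtracted. A probe was kept as valid if it was present in 80% or more of the samples at every stage, and counted as present when at least 50% of its spots were well above background, uniform and unsaturated. In the text a probe is called well above background on an array only if all its spots were, which is stricter. A gene was counted once, by its brightest valid probe. One limma fit (3.58.1, R 4.3.3) held all 3 stages, with Benjamini-Hochberg adjustment over the 13865 valid probes and a threshold of 0.01. Probes were named through their accession, gene number or description against RefSeq's gene table for ARS-UCD2.0. The build behind the array was not given in the sources used here, so no coordinates are printed.

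All member genes with a probe are named, with values on every array for those that head their family, and the 5 largest rises and falls of the other redox genes. The members and the lists of other genes were chosen with earlier results of these data known. Alternatives were 2 other scalings, normexp background correction (offset 50), the authors' table, 2 other filters, averaging a gene's probes, array weights, a robust prior, blocks for replicate number, slide and scan day, and leaving out each array. Averaging the close C2 arrays was chosen after seeing the data. The number of arrays limits the precision.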

Additional observations from a re-analysis of the deposited data

Results flagged for a closer look

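Of 111 groups made by a member gene and a stage, 5 held an array far from the rest of its stage, where chance alone flags about 1 in 20, or 5.55. At C2, replicate 2 was the low array for PRDX6 (4.99, the next at 6.14) and for NFE2L2 (4.62, the next at 5.53). At NC1, replicate 2 was low for PRDX2 (6.37, the next at 6.72), replicate 3 high for PRDX4 (7.71, the next at 7.40), and replicate 5 high for the brighter GSTA1 probe (11.04, the next at 10.1).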

How the results depend on the processing

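Of 27 calls of a gene in a contrast, 14 held under all 13 other settings and without each array in turn, and no call reversed. They were both calls of PRDX2, GLRX, GLRX2, GCLC and GSTO1, and those of GPX3 against C1 and of PRDX1, PRDX5 and HMOX1 against NC1. Of the gene contrasts without a call, 18 gained one under at least 1 of these settings or left-out arrays. Between C1 and NC1 the count of calls was 0 throughout. Without each array in turn, genes higher than C1 numbered 5 to 10, lower 2 to 5, higher than NC1 9 to 14, lower 3 to 5, and changed over the 3 stages 9 to 14 (14 with all arrays). Averaging C2 replicates 1 with 5 and 3 with 4 left 4 genes higher than C1, 7 higher than NC1 and 8 over the 3 stages. Array weights gave 2 lower than C1 and 3 lower than NC1, no filter on dim probes 2 lower than C1, and normexp 3 lower than NC1. The slide as a block gave 9 over the 3 stages. The methods' one-factor test gave 11. Replicate numbers are not stated to pair animals. The deviations of same-numbered arrays correlated between -0.32 and 0.25, which cannot show whether samples were paired. Each C2 array was on the same slide as the NC1 array of its number, so the replicate and slide blocks overlap in part. The replicate block gave 2 lower than C1, 2 lower than NC1 and 8 over the 3 stages, and ended the calls of SOD2, GPX3, TXNRD2, GSTM3 and NQO1 against NC1 and of PRDX1, TXNRD2, TXNIP and MGST3 against C1. The causes were not tested.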
